A study of Mus musculus with 8 samples.

Results

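The vascular endothelial growth factor (VEGF) family was examined in brain endothelial cells (ECs) as 10 genes chosen by name: the ligands *Vegfa*, *Vegfb*, *Vegfc*, *Vegfd* and *Pgf*, the receptors *Kdr*, *Flt1* and *Flt4*, and the neuropilins *Nrp1* and *Nrp2*. These are 10 of the 49315 genes counted, and all 10 were among the 16887 genes with enough reads to be tested. The libraries came from 4 Mutant pups (genotype label Map2k1 K57N) and 4 Wild type pups, 1 library per pup, with ECs taken from the whole brain at postnatal day 9 (P9) by beads that bind the surface protein CD31. Mutant pups carried an R26 GT-Map2k1-GFP allele, which expresses constitutively active MAP2K1 (p.K57N) from a CAG promoter once a stop cassette is removed, together with Tg-Cdh5CreER, a tamoxifen-inducible Cre driven by the promoter of the endothelial gene *Cdh5*. All pups of both groups received tamoxifen at P1. By the study's account the allele was recombined in a minority of the brain ECs of mutant pups, so each mutant library is a mixture of ECs with and without the active kinase. No group expressed normal MAP2K1 from the same locus. The controls are labelled wild type, although a supplement of the study describes a Tg:Cdh5-CreER pup as control.

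VEGF ligands are secreted dimers that bind receptor tyrosine kinases on ECs. VEGF-A (*Vegfa*) acts through VEGFR2 (*Kdr*), the main receptor for EC proliferation, migration and permeability. VEGFR1 (*Flt1*) binds VEGF-A tightly but signals weakly, and also binds VEGF-B (*Vegfb*) and placental growth factor (*Pgf*), while VEGF-C (*Vegfc*) and VEGF-D (*Vegfd*) act on VEGFR3 (*Flt4*), a receptor of lymphatic ECs and of sprouting blood vessels. Neuropilins are co-receptors shared with class 3 semaphorins. In the developing brain VEGF-A comes mainly from neural and glial cells, and MAP2K1 and ERK lie downstream of the receptors.

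Library sizes ranged from 24833373 to 34196955 counts on genes. The reads on *Map2k1*, which include those of the introduced cDNA, rose 9.07-fold (edgeR adjusted p = 2.84e-07) from 1607 ± 116 normalized counts (SD, n = 4) in wild-type to 14582 ± 2844 (SD, n = 4) in mutant ECs, with every mutant library above every wild-type library. Markers common to all ECs were abundant in all libraries, with a summed level for 10 genes of 9388 to 11648 CPM (counts scaled to a common library total) in mutant and 8034 to 9849 in wild-type libraries. Of these 10 genes *Pecam1*, *Cdh5* and *Emcn* were higher and *Cldn5* and *Tek* were lower in mutant ECs. Summed markers of each other cell type were lower than these in every library, and some differed between the groups. All 9 oligodendrocyte lineage markers were lower in mutant ECs (summed 39.7 to 72.8 CPM against 118 to 304), as were all 5 red blood cell genes (86.6 to 285 against 530 to 919) and 5 of 8 neuronal markers (29.1 to 45.3 against 39.9 to 96.9, with *Nefl* higher). Of 6 choroid plexus markers 2 were lower and *Clic6* was higher (112 to 244 CPM against 108 to 614). None of 8 microglial and macrophage markers passed the test (110 to 430 CPM against 113 to 477), and 2 of 7 pericyte markers (714 to 1145 against 640 to 1151), 1 of 4 smooth muscle markers (66.1 to 184 against 86.2 to 211) and 2 of 5 fibroblast markers (1053 to 1364 against 918 to 1225) were higher, with *Col3a1* lower. Of 8 astrocyte markers *Aldh1l1* was lower and *Gja1* higher (625 to 748 CPM against 372 to 442), *Gja1* alone averaging 655 and 376 CPM. Without *Gja1* the other 7 astrocyte markers summed to 17.9 to 48.7 CPM in mutant and 20.3 to 43.0 CPM in wild-type libraries, with a median log2 fold change of -0.58. Of the 4 lymphatic markers *Ccl21a* had no count in any library and the other 3 did not pass the test (21.3 to 29.0 CPM against 20.7 to 34.5). The part of these cells in the values below was not tested. In such bulk libraries fewer cells of a type and less RNA per cell cannot be told apart.

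Levels were compared between genes as RPKM, the scaled reads per kilobase of counted exon length. By mean level the receptors were the most abundant members in both groups. In wild-type ECs the order was *Kdr* at 256 ± 26.2 RPKM (SD, n = 4), *Flt1* at 186 ± 17.8, *Flt4* at 34.7 ± 2.53, *Nrp1* at 32.8 ± 1.91, *Vegfc* at 30.1 ± 5.27, *Nrp2* at 20.2 ± 0.775, *Vegfa* at 5.48 ± 0.429, *Pgf* at 4.61 ± 1.66, *Vegfb* at 3.97 ± 0.628 and *Vegfd* at 0.481 ± 0.0391. The libraries of neighbours in this order overlapped for *Flt4* and *Nrp1*, *Nrp1* and *Vegfc*, *Vegfa* and *Pgf*, and *Pgf* and *Vegfb*, and did not overlap for the other neighbours. In mutant ECs the mean of *Pgf* was 32.4 ± 11.2 RPKM (SD, n = 4), rank 4 of the 10 by mean, and its rank was between 3 and 6 in single mutant libraries and between 7 and 9 in single wild-type libraries. The mutant order was *Kdr* (170 ± 21.8 RPKM), *Flt1* (163 ± 22.0), *Flt4* (47.3 ± 11.3), *Pgf*, *Nrp1* (29.4 ± 1.29), *Nrp2* (27.2 ± 1.86), *Vegfc* (11.3 ± 1.48), *Vegfa* (9.15 ± 1.4), *Vegfb* (3.05 ± 0.314) and *Vegfd* (0.383 ± 0.202). The mutant libraries overlapped for the neighbours *Kdr* and *Flt1*, *Flt4* and *Pgf*, *Pgf* and *Nrp1*, *Nrp1* and *Nrp2*, and *Vegfc* and *Vegfa*, and not for the others. The counts do not separate splice forms, so soluble and membrane-bound *Flt1*, or the forms of *Vegfa*, are summed. The place of *Kdr* above *Flt1* depends on the length scaling. In mean normalized counts *Flt1* was above *Kdr*, at 74614 against 68617 in wild-type and 65094 against 45598 in mutant ECs.

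**Figure D1:**
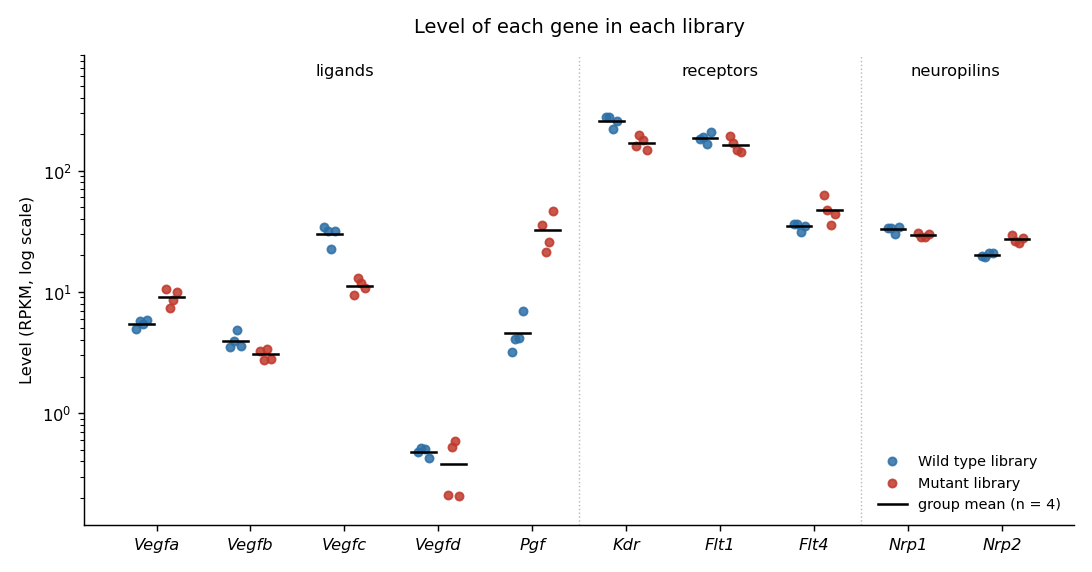
Level of each of the 10 genes in each of the 8 libraries, in RPKM on a log axis, with wild-type libraries in blue, mutant libraries in red and a bar at each group mean (n = 4). The red and blue points of *Pgf* and *Vegfc* lie far apart in opposite directions, and those of *Flt1*, *Flt4*, *Nrp1* and *Vegfd* overlap.

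The difference between the groups was tested by quasi-likelihood in edgeR over all 16887 genes, and a gene passed at a Benjamini-Hochberg adjusted p under 0.05. Of the 10 members 6 passed, where 44.4% of all genes tested did. Genes with more reads passed more often, 6178 of 11424 when a mean of at least 100 counts was required. *Vegfa*, *Pgf*, *Flt4* and *Nrp2* were higher in mutant ECs, against a background of 21.5% of genes that were higher, and *Vegfc* and *Kdr* were lower, against 22.9% that were lower. When a change beyond 1 on the log2 scale was also required, *Pgf* and *Vegfc* were differentially expressed, 2 of 10 where 14.0% of all genes were (5.90% higher and 8.05% lower). The libraries of both groups did not overlap for 6 members (*Vegfa*, *Vegfb*, *Vegfc*, *Pgf*, *Kdr* and *Nrp2*), where this was so for 42.5% of all genes (20.6% higher and 21.9% lower). Under 3 other scalings of the libraries 4 or 5 members were lower in place of 2, *Vegfb*, *Flt1* and *Nrp1* passing in some of them. The median log2 fold change was -0.33 over the 5 ligands, -0.20 over the 3 receptors and 0.14 over the 2 neuropilins, beside -0.02 over all genes tested. The first is the value of *Vegfd* and the second that of *Flt1*, neither of which passed, so these medians describe their classes poorly. With 4 members higher and 2 lower, the family had no common direction.

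**Figure D2:**
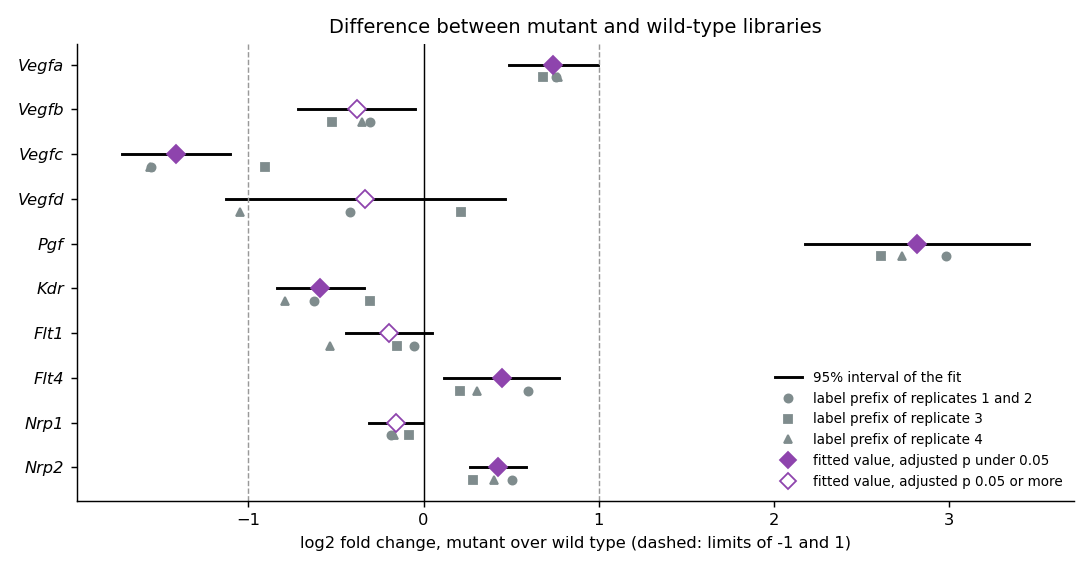
Fitted log2 fold change of each gene, mutant over wild type, as a diamond with its 95% interval, filled where the adjusted p was under 0.05, and below it in grey the log2 ratio of group means within each of the 3 label prefixes. *Pgf*, at 2.82, is the farthest from 0 and *Vegfc*, at -1.41, the only other gene beyond the dashed limits.

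Among the ligands, *Pgf* (ENSMUSG00000004791; chromosome 12 of GRCm38, 85166639 to 85177296, minus strand), a ligand of VEGFR1 that is scarce in most healthy adult tissues, rose most. It had 1682, 1004, 1203 and 2180 normalized counts in mutant libraries 1 to 4 and 149, 191, 197 and 328 in wild-type libraries 1 to 4. The lowest mutant library was above the highest wild-type library, and mutant 4 and wild type 4 were the highest of their groups. The log2 fold change was 2.82 ± 0.29 (standard error, 95% interval 2.18 to 3.46, edgeR adjusted p = 4.81e-05), a 7.04-fold difference, which ranked 161 among all rises of the genes tested.

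*Vegfa* (ENSMUSG00000023951; chromosome 17, 46016993 to 46032369, minus strand), the principal angiogenic ligand, had 1345, 944, 1097 and 1262 normalized counts in mutant libraries and 623, 734, 684 and 741 in wild-type libraries. All mutant libraries lay above all wild-type libraries. The increase was 1.67-fold (log2 fold change 0.74, standard error 0.11, adjusted p = 5.49e-04, edgeR), short of the limit of 1.

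*Vegfc* (ENSMUSG00000031520; chromosome 8, 54077606 to 54187096, plus strand), which drives lymphatic and venous growth through VEGFR3, was the most abundant ligand of wild-type ECs and fell. Its normalized counts were 690, 939, 867 and 782 in mutant libraries and 2496, 2297, 1625 and 2310 in wild-type libraries, without overlap. Wild type 3 was the lowest of the controls. The log2 fold change was -1.41 ± 0.14 (standard error, edgeR adjusted p = 3.86e-05), a 2.66-fold lower level in mutant ECs.

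*Vegfb* and *Vegfd* did not pass the test with TMM scaling and no block. *Vegfb* (ENSMUSG00000024962; chromosome 19, 6982473 to 6987651, minus strand), a selective VEGFR1 ligand linked to tissue fatty acid uptake, had 154, 131, 161 and 134 normalized counts in mutant and 167, 186, 232 and 170 in wild-type libraries. The groups did not overlap, but the log2 fold change of -0.38 (95% interval -0.72 to -0.05) had an adjusted p of 0.0623 (edgeR). It passed with the prefix of the sample labels as a block (log2 fold change -0.37, adjusted p = 0.0296, edgeR) and with the replicate number as a block (-0.37, adjusted p = 0.0479, edgeR). Without a block it passed under upper quartile scaling (-0.45, adjusted p = 0.0388, edgeR) and raw library sizes (-0.44, adjusted p = 0.0486, edgeR). Its adjusted p ranged from 0.0296 to 0.170 over all alternatives. *Vegfd* (ENSMUSG00000031380; chromosome X, 164373378 to 164402650, plus strand) had few reads, 12 to 38 in mutant and 29 to 42 in wild-type libraries, and its log2 fold change was -0.33 (95% interval -1.13 to 0.46, adjusted p = 0.479, edgeR). Its mutant libraries fell into a lower pair (mutants 1 and 4) and a higher pair (mutants 2 and 3), at 15.2, 14.8, 37.5 and 42 normalized counts.

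The changes of *Pgf* and *Vegfc* altered the make-up of the ligand transcripts more than their sum. The 5 ligands summed to 45.1 to 70.2 RPKM in mutant and 37.3 to 48.7 RPKM in wild-type libraries, and these ranges overlapped. *Vegfc* made up 67.1% ± 5.93 (SD, n = 4) of the ligand RPKM in wild-type and 21.0% ± 6.43 (SD, n = 4) in mutant libraries. *Pgf* made up 10.3% ± 3.24 (SD, n = 4) in wild-type and 56.3% ± 8.55 (SD, n = 4) in mutant libraries. In each wild-type library *Vegfc* was the largest ligand share (59.9% to 74.0%), and in each mutant library *Pgf* was (47.5% to 66.2%). The share of *Vegfa* was 12.4% ± 1.6 (SD, n = 4) in wild-type and 16.4% ± 1.61 (SD, n = 4) in mutant libraries, with overlap between the groups.

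**Figure D3:**
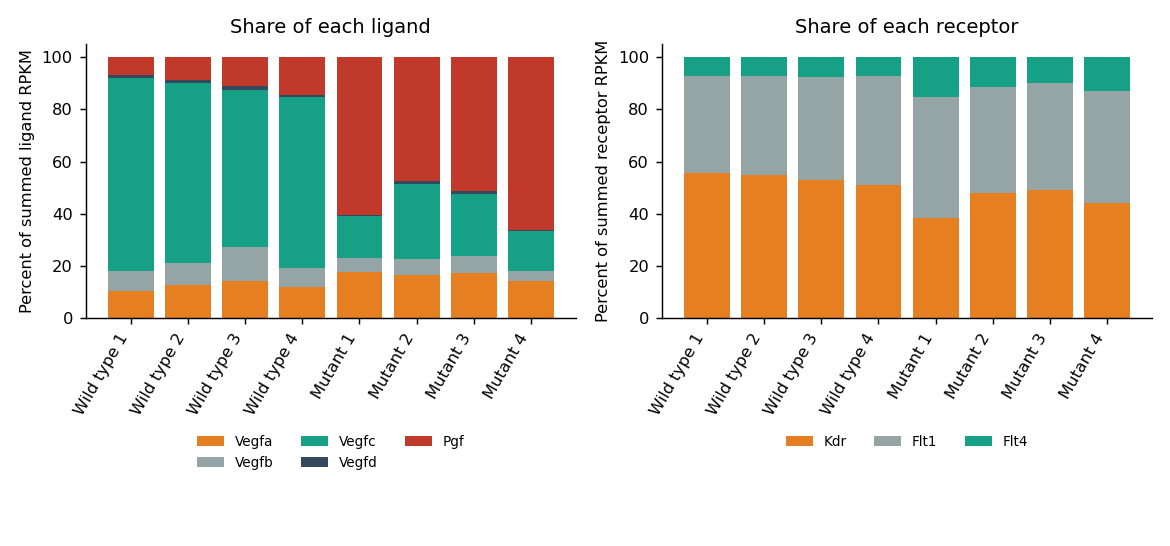
Share of each ligand (left) and each receptor (right) in the summed RPKM of its class, in percent, with 1 stacked bar per library. *Vegfc* fills most of the wild-type ligand bars, with 59.9% to 74.0%, and *Pgf* the largest part of the mutant bars, with 47.5% to 66.2%.

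The sequences before the first transcription starts of the ligands that changed are shown, since these are the members that moved most. They are the 250 bases upstream of the RefSeq start on GRCm38.p6, at chr12:85177314-85177563 (minus strand) for *Pgf*, chr17:46032378-46032627 (minus strand) for *Vegfa* and chr8:54077282-54077531 (plus strand) for *Vegfc*. Capitals mark GGGCGG, the GC box, on either strand, and overlapping matches run together.
Pgf: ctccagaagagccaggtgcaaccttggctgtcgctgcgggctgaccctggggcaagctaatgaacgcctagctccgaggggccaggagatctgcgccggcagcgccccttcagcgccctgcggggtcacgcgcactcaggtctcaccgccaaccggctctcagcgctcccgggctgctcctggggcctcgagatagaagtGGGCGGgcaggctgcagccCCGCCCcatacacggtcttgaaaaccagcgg
Vegfa: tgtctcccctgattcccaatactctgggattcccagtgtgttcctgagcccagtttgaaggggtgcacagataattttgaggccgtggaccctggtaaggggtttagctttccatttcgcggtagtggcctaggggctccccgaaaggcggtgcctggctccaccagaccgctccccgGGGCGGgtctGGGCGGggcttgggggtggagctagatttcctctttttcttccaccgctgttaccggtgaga
Vegfc: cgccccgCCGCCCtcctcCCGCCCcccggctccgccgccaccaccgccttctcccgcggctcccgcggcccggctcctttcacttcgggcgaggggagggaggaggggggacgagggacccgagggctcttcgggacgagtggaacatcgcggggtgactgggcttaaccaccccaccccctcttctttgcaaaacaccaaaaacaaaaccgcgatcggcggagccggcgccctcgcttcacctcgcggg
Each of the 3 sequences holds 2 GC boxes. This motif was found in 32.7% of all 32851 upstream sequences of this length and in 10 of the 12 sequences of the members. The sequence of *Vegfd* and that of the internal start of *Pgf* lacked it. The GC content of the 3 sequences shown was 68.4% for *Pgf*, 59.2% for *Vegfa* and 71.6% for *Vegfc*, beside a median of 52.4% over all sequences. The GC box was chosen after the other motifs had been searched. These were the core of the hypoxia response element (ACGTG), a form of the ETS factor site (CCGGAA) and the AP-1 site (TGANTCA). They were searched on both strands and found in none of the 3 sequences. The shorter GGAA core of ETS sites was not searched. ACGTG occurs in 16.6% of all sequences, CCGGAA in 12% and TGANTCA in 6.75%. Among the 12 upstream sequences of the 10 members, ACGTG was found once, before the internal start of *Vegfa*, and TGANTCA in none. A missing match says only that these letters are not in this window.

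Among the receptors, *Kdr* (ENSMUSG00000062960; chromosome 5, 75932827 to 75978458, minus strand) fell. It had 42674, 52780, 47551 and 39386 normalized counts in mutant and 73503, 73912, 58840 and 68214 in wild-type libraries, and the highest mutant library was below the lowest wild-type library. The log2 fold change was -0.59 ± 0.11 (standard error, edgeR adjusted p = 0.00177), a 1.5-fold lower level. *Kdr* is the only member with CCGGAA upstream of its start, 1 of the 12 member sequences, beside 12% of all sequences. The part of this match in the fall of *Kdr* was not tested. The 60 bases around it (chr5:75978576-75978635, minus strand) are shown with the match, here TTCCGG on the transcribed direction, in capitals.
Kdr: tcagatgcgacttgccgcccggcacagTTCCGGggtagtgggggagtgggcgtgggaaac

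*Flt4* (ENSMUSG00000020357; chromosome 11, 49609263 to 49652739, plus strand) was higher in mutant ECs. Its normalized counts were 15330, 11446, 8762 and 10613 in mutant and 8874, 8864, 7570 and 8579 in wild-type libraries. Mutant 1 was the highest library, and mutant 3 lay within the range of the controls. The log2 fold change was 0.45 ± 0.15 (standard error, edgeR adjusted p = 0.0309), a 1.36-fold difference. This call was lost without mutant replicate 2 (log2 fold change 0.45, adjusted p = 0.0581, edgeR) and without wild type replicate 3 (0.40, adjusted p = 0.0759, edgeR). *Prox1*, the defining transcription factor of lymphatic ECs, had 19.4 CPM in mutant and 22.7 CPM in wild-type libraries on average. Its log2 fold change was -0.23, while the lymphatic markers *Lyve1* and *Pdpn* had 1.03 and 0.10. None of these passed the test, and the part of lymphatic ECs in the *Flt4* values was not tested.

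*Flt1* (ENSMUSG00000029648; chromosome 5, 147561604 to 147726011, minus strand) had 76631, 67271, 59131 and 57341 normalized counts in mutant and 73501, 76067, 65794 and 83093 in wild-type libraries. The groups overlapped, and the log2 fold change of -0.20 (95% interval -0.44 to 0.05) had an adjusted p of 0.176 (edgeR). The interval leaves room for a fall of up to 0.44 on the log2 scale.

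The sum of the 3 receptors was 334 to 414 RPKM in mutant and 415 to 503 RPKM in wild-type libraries. The groups nearly met, at 413.8 RPKM in mutant 1 and 415.3 in wild type 3, and the sum depends on how libraries are scaled. Ratios within a library do not depend on how libraries are scaled, and they are given here without a test. The *Flt1* to *Kdr* ratio of RPKM was 1.20, 0.852, 0.832 and 0.974 in mutant libraries 1 to 4 and 0.669, 0.688, 0.748 and 0.815 in wild-type libraries 1 to 4. The groups did not overlap, although mutant 3 and wild type 4 were close. The *Flt4* to *Kdr* ratio was 0.282 ± 0.0838 (SD, n = 4) in the mutant group and 0.136 ± 0.00456 (SD, n = 4) in wild-type libraries, 2.08 times as high, and the 4 controls lay between 0.132 and 0.141.

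The neuropilins diverged. *Nrp2* (ENSMUSG00000025969; chromosome 1, 62703285 to 62818695, plus strand), the co-receptor of VEGFR3 and a receptor of *Sema3f*, had 10387, 9163, 8914 and 9708 normalized counts in mutant and 6980, 6775, 7317 and 7335 in wild-type libraries. The groups did not overlap, and the log2 fold change was 0.43 ± 0.07 (standard error, edgeR adjusted p = 8.74e-04), a 1.34-fold difference. *Nrp1* (ENSMUSG00000025810; chromosome 8, 128358604 to 128503363, plus strand), the co-receptor of VEGFR2 and a receptor of *Sema3a*, had 8932, 8215, 8213 and 8775 normalized counts in mutant and 9712, 9767, 8685 and 9876 in wild-type libraries. Its log2 fold change of -0.16 ± 0.07 (standard error, with edgeR adjusted p = 0.0946) did not pass, and wild type 3 lay within the mutant range. The *Nrp1* to *Nrp2* ratio of RPKM was 1.04, 1.08, 1.12 and 1.09 in mutant and 1.68, 1.74, 1.44 and 1.63 in wild-type libraries, so that all mutant libraries were below all controls. The *Pgf* to *Vegfa* ratio was 3.48 ± 0.831 (SD, n = 4) in the mutant group and 0.833 ± 0.251 (SD, n = 4) in wild-type libraries.

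**Figure D4:**
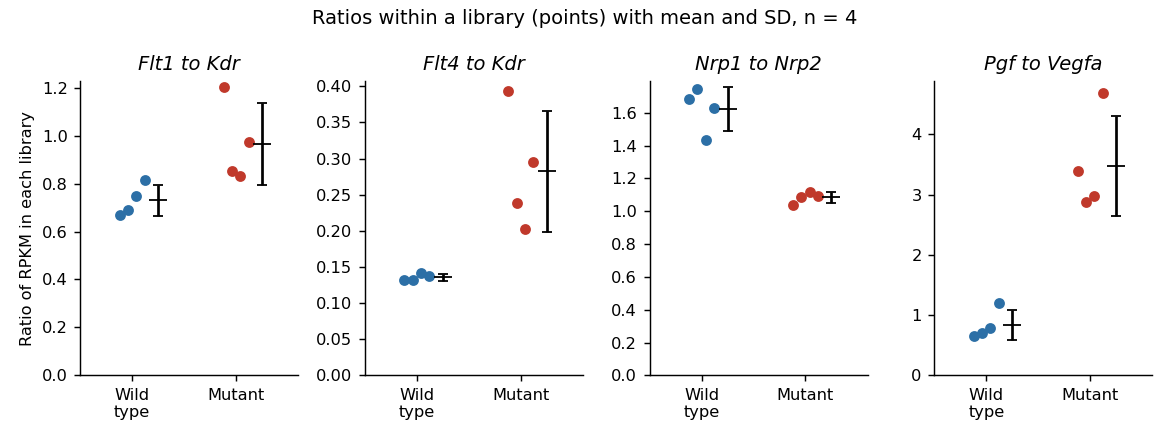
Ratios of RPKM between pairs of genes within each library, on linear axes from 0, with 1 point per library and the mean and SD of each group (n = 4) beside the points. The mutant points lie above the wild-type points for *Flt1* to *Kdr*, *Flt4* to *Kdr* and *Pgf* to *Vegfa* and below them for *Nrp1* to *Nrp2*.

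The sample labels carry 3 prefixes, one shared by replicates 1 and 2 of both groups, another by replicate 3 and the last by replicate 4. By the study's account wild-type pups were drawn from the litters of the mutant pups, in matching number. The prefixes hold equal numbers of both groups, as litters so matched would, but the sources used here do not say that a prefix marks a litter. For 9 of the 10 members the sign of the difference was the same within every prefix. *Pgf* had log2 ratios of group means of 2.98, 2.61 and 2.73, and *Vegfa* of 0.75, 0.68 and 0.77. *Vegfc* had -1.56, -0.91 and -1.56, and *Kdr* -0.63, -0.31 and -0.79. *Flt4* had 0.59, 0.21 and 0.31, and *Nrp2* 0.51, 0.28 and 0.40. The exception in sign was *Vegfd*, with -0.42, 0.21 and -1.05. All 6 members that passed the test had their smallest difference in replicate 3, while *Vegfb* had its largest there (-0.52). How many of all genes tested had their smallest difference there was not counted, so this is not shown to be particular to the members.

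Other genes of the pathway were counted from 6 lists of 101 genes, of which 100 were tested, 39 were higher, 24 were lower and 37 did not pass. The lists were chosen with earlier results of these data known. They hold genes that the study reports as increased, such as *Itgb3*, *Vav3*, *Angpt2* and *Plvap*. Their shares are therefore a description and cannot show an excess over the background. Over all genes tested 21.5% were higher and 22.9% lower, so the share that was lower in these lists (24.0%) was near the background. This background includes genes with few reads. With a mean of at least 100 counts required, 6178 of 11424 genes passed in either direction. Around the receptors, 4 of 12 partner genes and phosphatases were higher and 3 lower (33.3% and 25%, against 21.5% and 22.9% of all genes), with a median log2 fold change of 0.08. The rises were led by integrin β3, *Itgb3*, from 303 ± 35.0 (SD, n = 4) to 7487 ± 2554 normalized counts (SD, n = 4), which corresponds to a log2 fold change of 4.63 ± 0.24 (standard error, with edgeR adjusted p = 7.27e-07). Its partner *Itgav* rose by 1.26 on the log2 scale (adjusted p = 0.00123, edgeR), and *Cdh5*, which encodes VE-cadherin and whose promoter drives the Cre transgene, by 1.11 (adjusted p = 6.04e-05, edgeR). *Ptprb*, the phosphatase VE-PTP that restrains VEGFR2 and Tie2, was lower (log2 fold change -0.77, adjusted p = 6.10e-04, edgeR) and was named after its values were seen.

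Of the 6 genes that process VEGF-C and VEGF-D, 3 were higher, 1 was lower and *Ccbe1* had too few reads to test (median over the 5 tested 0.36). Of the 5 tested 80.0% passed, against 44.4% of all genes. The higher genes were *Adamts14* (log2 fold change 0.88) and the convertases *Pcsk7* (0.36) and *Furin* (0.29), named after their values were seen. The lower gene was the proprotein convertase *Pcsk5*, with 609 ± 113 (SD, n = 4) against 1471 ± 211 normalized counts (SD, n = 4) and a log2 fold change of -1.27 (adjusted p = 1.05e-04, edgeR). Among the 12 class 3 semaphorins and plexins of the neuropilins, 4 were higher and 2 lower, and the 50% that passed were near the 44.4% of all genes (median 0.12, or -0.06 with a mean of at least 100 counts required). *Sema3f*, a ligand of *Nrp2*, rose from 824 ± 133 (SD, n = 4) to 3147 ± 1081 normalized counts (SD, n = 4), which corresponds to a log2 fold change of 1.93 ± 0.22 (standard error, with edgeR adjusted p = 8.51e-05). *Sema3c*, a ligand of both neuropilins, fell by 1.05 on the log2 scale (standard error 0.27, adjusted p = 0.00951, edgeR).

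Of 33 transducers of receptor signals, 11 were higher, 7 were lower and 15 did not pass, which put 33.3% higher and 21.2% lower against 21.5% and 22.9% of all genes (median 0.04, or -0.02 with upper quartile scaling). *Vav3*, an exchange factor for Rac, rose by 1.91 on the log2 scale (adjusted p = 8.60e-06, edgeR). *Prkcb*, a protein kinase C, changed by -1.74 (adjusted p = 3.10e-04, edgeR), the small heat shock protein *Hspb1* by -1.58 (adjusted p = 4.12e-05, edgeR) and the kinase *Src* by -1.03 (adjusted p = 1.34e-04, edgeR). Phospholipase Cγ1, *Plcg1*, which couples VEGFR2 to ERK, had a log2 fold change of 0.10 (adjusted p = 0.450, edgeR), and was named after its values were seen.

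Among 20 genes known to be induced by VEGF in ECs, 8 were higher and 7 lower (median -0.16), that is 40.0% and 35.0% against 21.5% and 22.9% of all genes. *Plvap*, the protein of fenestral diaphragms, rose by 3.26 on the log2 scale (adjusted p = 5.78e-06, edgeR), urokinase, *Plau*, by 2.45 (adjusted p = 3.34e-04, edgeR) and angiopoietin 2, *Angpt2*, by 2.03 (adjusted p = 3.86e-05, edgeR). The nuclear receptors *Nr4a1* and *Nr4a2* changed by -1.33 (adjusted p = 2.37e-04, edgeR) and -1.06 (adjusted p = 1.53e-04, edgeR). *Nr4a1* had 15046 to 27100 normalized counts in mutant and 46185 to 62760 in wild-type libraries. Of 18 genes of oxygen sensing and the hypoxia response, of which *Vegfa* is itself a known target, 9 were higher and 4 lower (median 0.23). These were 50% and 22.2% of the list, the latter near the 22.9% of all genes. They were led by the prolyl hydroxylase *Egln3*, at 700 to 1634 normalized counts in mutant and 52.5 to 63.8 in wild-type libraries (log2 fold change 4.07, adjusted p = 4.77e-06, edgeR), and the glycolytic enzyme *Pgk1* (1.33, adjusted p = 7.09e-06, edgeR). The other higher genes were *Car9* (log2 fold change 1.08), *Ndrg1* (0.94), *P4ha1* (0.87), *Bnip3* (0.76), *Ldha* (0.59), *Pdk1* (0.54) and *Hif1a* (0.35). The lower genes were *Epas1* (-0.76), *Egln1* (-0.48), *Bnip3l* (-0.34) and *Mxi1* (-0.30). *Adm* (-0.16, adjusted p = 0.585, edgeR) and *Ankrd37* (-0.53, adjusted p = 0.0576, edgeR) were among those that did not pass. The genes of this list other than *Egln3* and *Pgk1* were named after their values were seen.

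**Figure D5:**
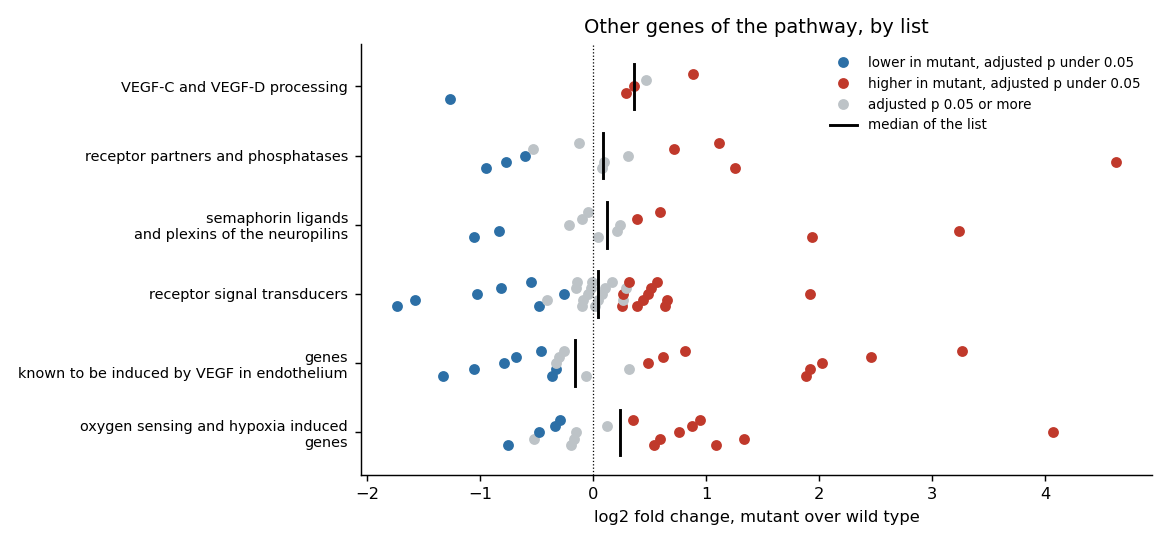
Fitted log2 fold change, mutant over wild type, of each tested gene in the 6 pathway lists, coloured by direction where the adjusted p was under 0.05, with a bar at each list's median. Every list holds genes on both sides of 0, and the medians lie between -0.16 and 0.36.

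The genes whose pattern over the 8 libraries was most like that of each member were found by the root mean square (RMS) difference of log2 levels, each set relative to its wild-type mean, among 11387 genes. *Pgf* was nearest to *Six4* (RMS difference 0.18) and *Tnfrsf26* (0.20). *Vegfc* was nearest to *Lmo7* (0.10) and *Mlph* (0.10), and *Vegfa* to *Eef1b2* (0.09) and *Dnajc25* (0.09). *Kdr* was nearest to *Lrba* (0.05) and the caveolin *Cav2* (0.05), *Flt4* to *Igfbp4* (0.06) and *Hid1* (0.06), and *Nrp2* to *Cds2* (0.04) and *Mpdu1* (0.04). For the members that did not pass the test the nearest genes were *Gmcl1* (0.06) and *Rbms2* (0.07) for *Flt1*, *Thap11* (0.03) and *Fibp* (0.04) for *Nrp1*, *Siah2* (0.09) and *Jam3* (0.10) for *Vegfb*, and *Wnt5a* (0.24) and *Chn2* (0.26) for *Vegfd*. A small difference says that sizes and library-to-library spread were alike in these 8 libraries.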

How the data were processed

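Reads were trimmed (Trimmomatic) and aligned to GRCm38 (STAR) by the authors, who deposited whole-number counts per gene for each library. The kit named in the labels was NEBNext Ultra II with poly(A) selection. The counting program, annotation release and use of strand are not given in the sources used here. The deposited files also give each gene's summed exon length, used here for RPKM, and a second deposited set of signal values for 16889 genes. Multiplied by 1 DESeq2 factor per library, 100% of these values came within 0.01 of the whole counts, so the set was not tested separately. Gene positions are those of the deposited files. Symbols came from a table of Ensembl identifiers and names (48970 of 49315 identifiers matched). Upstream sequences came from RefSeq (GRCm38.p6), where all 10 members matched.

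Counts were tested in R 4.3.3 with edgeR 4.0.16 (TMM scaling, filterByExpr with minimum count 10, glmQLFit and glmQLFTest, no covariate, as in the study, although pups were matched by litter). Normalized counts are TMM-scaled to the mean library size. The standard error is the absolute log2 fold change divided by the root of F. DESeq2 1.42.0, other scalings, other filters, blocks and left-out libraries were the alternatives. In counts simulated for 16887 genes, 100 genes were given a log2 change of 1 and 100 a log2 change of 2. Of these 73% and 98% were called, with 11 unchanged genes called. The changed genes excluded those with the fewest reads, and the simulated spread followed the fitted trend. In the data 44.4% of genes passed, a far larger share than was changed, so these rates do not carry over to the members. No library was a copy of another of its group (chi-square per degree of freedom 6.70 to 37.1 over 12 pairs), so each counted as 1 sample.

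Genes named are the 10 members, up to 3 rises and 3 falls per pathway list (absolute log2 fold change over 1, group mean reaching 100 normalized counts in at least 1 group), and the 2 genes nearest to each member (log2 of normalized counts plus 0.5, mean of 100 or more). Those outside this rule are named as such or serve as background. Members and lists were chosen with earlier results of these data known, and the GC box was added after the other motifs had been searched. Only 80 bases of 1 member's exons (*Nrp1*) overlap another gene, a microRNA with no count.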

Additional observations from a re-analysis of the deposited data

Results flagged for a closer look

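*Nrp1* had 8685 normalized counts in wild type replicate 3, while the other wild-type libraries had 9712, 9767 and 9876, so this library stood apart from the rest of its group by Dixon's test at the 95% level. It was the only one of 20 member and group combinations to do so, and chance flags about 1 in 20.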

How the results depend on the processing

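All 17 alternatives kept the direction of every member's fitted log2 fold change, except that *Vegfd* was not tested under the filter of a mean of at least 100 counts. *Pgf* (2.61 to 3.10), *Vegfc* (-1.53 to -1.31), *Vegfa* (0.68 to 0.83), *Kdr* (-0.67 to -0.50) and *Nrp2* (0.36 to 0.46) passed under all 17, and *Vegfd* (-0.61 to -0.09) under none of 16. With each library left out in turn, *Flt4* ranged from 0.30 to 0.57 and lost its call in 2 cases, without mutant replicate 2 and without wild type replicate 3. Under upper quartile scaling *Vegfb* (-0.45) and *Nrp1* (-0.22) passed as lower, under raw library sizes *Vegfb* (-0.44), *Flt1* (-0.25) and *Nrp1* (-0.21), and under scaling to endothelial markers other than *Cdh5*, *Flt1* (-0.26) and *Nrp1* (-0.22). The number of members lower was then 4, 5 and 4 in place of 2. These scalings moved the log2 fold change of all genes by a median of -0.06, -0.05 and -0.06. *Nrp1* also passed with a mean of at least 100 counts required (-0.17). The cause was not tested. *Vegfb* passed with the replicate block (-0.37) and with the label prefix as a block (-0.37). Same-numbered libraries deviated together with correlations of 0.20, 0.21, 0.29 and 0.02, and 2 of 4 correlated best with their own number, so a pairing by replicate number was not established. With the replicate block 8162 genes passed and with the prefix block 8610, against 7504 without a block, and neither changed the call of another member. Without length scaling the mean ratios were 1.44 in mutant and 1.09 in wild-type libraries for *Flt1* to *Kdr*, 0.895 and 1.34 for *Nrp1* to *Nrp2*, 1.28 and 0.308 for *Pgf* to *Vegfa*, and 0.124 in wild-type libraries for *Flt4* to *Kdr*, by construction a shift by the ratio of lengths. A longer ETS motif was found in 0 members, in place of 1. The median of the semaphorin and plexin list lay between -0.06 and 0.30.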
